A study of Arabidopsis thaliana with 114 samples.

Results

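The genes described are the 9 members of the C and S1 groups of bZIP transcription factors of Arabidopsis thaliana, followed over 2 organs, 2 supplies and time. Group S1 holds BZIP1 (AT5G49450), BZIP2 (AT2G18160), BZIP11 (AT4G34590), BZIP44 (AT1G75390) and BZIP53 (AT3G62420). Group C holds BZIP9 (AT5G24800), BZIP10 (AT4G02640), BZIP25 (AT3G54620) and BZIP63 (AT5G28770). They were chosen by identifier and are 9 of 28712 genes in the count files. All 9 passed the filter on low counts in both organs, among 20899 genes tested in the shoot and 22185 in the root.

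A bZIP factor binds DNA as a dimer through a basic region beside a leucine zipper. Factors of group S1 are small and pair preferentially with factors of group C, and such pairs bind ACGT-cored elements and the ACTCAT element. Translation of S1 messenger RNA is held down by sucrose through a short reading frame upstream of the main one. The network is known as an arm of the energy-sensing kinase SnRK1, which acts under starvation, and asparagine synthetase and proline dehydrogenase genes are known targets.

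The series holds 114 RNA sequencing libraries of polyA RNA from seedling shoots and roots in 38 groups of 3. Seedlings were kept on 1% sucrose with 1 mM KNO3 and sampled untreated at time 0. Others were sampled at 9 times from 5 to 120 after N, which was 20 mM KNO3 together with 20 mM NH4NO3 (60 mM nitrogen), or after 20 mM KCl. The labels give no genotype and no unit of time, and minutes are assumed here. This composition of N is the one in the protocol text. A treatment tag stands on only 2 of the N libraries, both of the shoot, and it names KNO3 alone, so the presence of ammonium in N rests on the protocol text. Effects of nitrate, ammonium, chloride and salt strength cannot be told apart. The sucrose in the medium was shared by all groups. The labels do not say whether the 3 libraries of a group are separate cultures, so p-values measure the spread between these samples, which may be technical.

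Gene counts per library ranged from 5710272 to 43570824 in 56 shoot libraries and from 13878732 to 143269564 in 57 root libraries. Shoot KCl replicate 2 at 90 min holds 1302 gene counts and was left out, so that group has n = 2. At time 0 all 6 shoot markers were higher in the shoot and 5 of 6 root markers lower, with SCR not called. The 12 root libraries of 10 and 15 min stand apart from the 45 other root libraries. Their root marker sums were 333.6 to 779.2 CPM against 152.7 to 317.5 CPM, where CPM are counts scaled to library size, and their shoot marker sums 84.5 to 302 CPM against 35.4 to 208 CPM. Whole organs were sampled, so fewer cells of a type and less RNA per cell cannot be told apart.

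The 2 groups differ in how their genes are built. In the TAIR10.1 annotation each of the 5 S1 genes carries an annotated upstream reading frame, of 25 codons in BZIP1, 28 in BZIP53, 41 in BZIP2 and BZIP44 and 42 in BZIP11. None of the 4 group C genes carries an annotated one. Only frames marked as such in that annotation were counted, and transcripts were not searched for others. Of all nuclear protein-coding genes, 83 of 27444 carry an annotated one (0.302%). The main reading frames of the S1 genes run from 145 to 173 codons. Transcripts of these genes have 1 exon, apart from a transcript of BZIP44 with 2. The main frames of group C run from 277 codons in BZIP9 to 417 in BZIP10, in genes whose transcripts have up to 6 or 7 exons. BZIP9 overlaps a neighbouring gene, and its count is uncertain because the strand setting of the counting is not given in the sources used here.

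The windows of 250 bases before the annotated starts were searched on both strands for the core ACGT, for its longer forms CACGTG (the G-box) and GACGTC (the C-box), and for ACTCAT. Each match of a longer form also holds the core. Of all 27443 such windows, 44.1% hold the core, 6.49% the G-box, 2.27% the C-box and 12.3% the ACTCAT element. Of the 9 bZIP windows, 3 hold the core, those of BZIP53, BZIP9 and BZIP10, and 0 hold any of the other 3 motifs. Of 22 windows of low-energy target genes, 12 hold the core, 2 the G-box (ASN1 and TPPE), 0 the C-box and 2 the ACTCAT element (ERD5 and TPPF). The windows of an S1 gene that rose in both organs, of a group C gene that fell and of the 2 textbook targets are shown from RefSeq TAIR10.1, 5′ to 3′ on the gene's strand, with matches in capitals. They lie at chr3:23092851-23093100 (minus strand) for BZIP53, chr4:1153695-1153944 (plus) for BZIP10, chr3:17441432-17441681 (minus) for the asparagine synthetase gene ASN1 and chr3:12451557-12451806 (minus) for ERD5, a proline dehydrogenase gene. In the ERD5 window the longer capital run is ACTCAT on the opposite strand.
BZIP53: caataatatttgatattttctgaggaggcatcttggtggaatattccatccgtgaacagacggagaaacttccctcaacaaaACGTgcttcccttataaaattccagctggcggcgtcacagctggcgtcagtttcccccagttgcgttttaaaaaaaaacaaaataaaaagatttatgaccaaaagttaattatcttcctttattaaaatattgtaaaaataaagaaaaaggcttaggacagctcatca
BZIP10: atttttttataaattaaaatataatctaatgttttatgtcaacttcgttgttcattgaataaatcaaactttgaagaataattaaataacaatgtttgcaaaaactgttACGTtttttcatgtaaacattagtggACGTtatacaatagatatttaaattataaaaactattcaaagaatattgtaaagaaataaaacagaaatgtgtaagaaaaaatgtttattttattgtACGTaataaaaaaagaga
ASN1: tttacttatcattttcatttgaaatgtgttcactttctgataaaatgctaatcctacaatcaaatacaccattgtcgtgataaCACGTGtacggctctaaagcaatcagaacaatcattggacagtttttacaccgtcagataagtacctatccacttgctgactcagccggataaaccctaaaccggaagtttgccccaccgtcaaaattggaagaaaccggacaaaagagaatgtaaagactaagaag
ERD5: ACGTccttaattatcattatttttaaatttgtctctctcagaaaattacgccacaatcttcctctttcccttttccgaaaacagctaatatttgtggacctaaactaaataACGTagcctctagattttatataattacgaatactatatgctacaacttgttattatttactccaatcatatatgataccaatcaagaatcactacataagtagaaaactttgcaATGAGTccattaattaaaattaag
A match is a run of letters and not a measured binding site.

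Before treatment, levels per length differed widely among the 9 genes. In the shoot at time 0, BZIP11 stood highest at 124 ± 13.3 CPM per kb (SD, n = 3, as all values in this paragraph). BZIP2 followed at 98.3 ± 10.4, BZIP53 at 81.1 ± 4.34, BZIP25 at 72.9 ± 6.53, BZIP10 at 53.0 ± 1.90, BZIP44 at 38.8 ± 4.74 and BZIP9 at 26.1 ± 2.94 CPM per kb. BZIP1 at 11.5 ± 2.36 and BZIP63 at 3.44 ± 0.424 CPM per kb were lowest. Among neighbours in that order only the libraries of BZIP53 and BZIP25 overlapped.

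In the root BZIP2 led with 189 ± 6.86 CPM per kb, ahead of BZIP9 at 109 ± 13.1 and BZIP53 at 81.2 ± 3.53 CPM per kb. BZIP25 at 66.4 ± 4.18, BZIP11 at 59.2 ± 11.9 and BZIP44 at 58.5 ± 2.02 CPM per kb came next, each overlapping its neighbour in that trio. BZIP10 stood at 36.2 ± 5.73, and BZIP1 at 8.09 ± 1.48 and BZIP63 at 7.19 ± 2.13 CPM per kb overlapped at the bottom. Of the 9 genes, 6 differed between the organs at time 0 (edgeR quasi-likelihood test with Benjamini-Hochberg adjustment over all genes), beside 79.5% of all genes tested. Reads aligned to several places numbered 0 in the shoot files of time 0 and 11278921 to 25995563 in the root files. A difference in read handling between the files cannot be told apart from organ here. BZIP9, known from phloem, was 4.18-fold higher in the root (adjusted p = 2.26e-19), BZIP63 2.1-fold (0.000689), BZIP2 1.92-fold (4.84e-09) and BZIP44 1.51-fold (0.000400). BZIP11 was 2.1-fold higher in the shoot (adjusted p = 4.01e-09) and BZIP10 1.47-fold (8.13e-07). For BZIP1, BZIP25 and BZIP53 the log2 differences, shoot minus root, were 0.50 (SE 0.504), 0.13 (SE 0.111) and 0.00 (SE 0.121), none called.

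After N, 8 of the 9 genes differed from KCl in the shoot and 7 in the root in 1 F-test over the 9 times (edgeR, adjusted p under 0.05), beside 47.4% and 61.0% of all genes. Direction was read at the time of smallest p. In the shoot 4 were higher (BZIP2, BZIP11, BZIP44 and BZIP53) and 4 lower (BZIP1, BZIP9, BZIP10 and BZIP63), where 23.7% of all genes were higher and 23.7% lower. In the root 4 were higher (BZIP1, BZIP2, BZIP53 and BZIP63) and 3 lower (BZIP9, BZIP10 and BZIP25), where 29.3% were higher and 31.7% lower. Without the root libraries of 10 and 15 min, 6 of 9 were called in the root, since BZIP25 was lost (adjusted p = 0.164). Without replicate 3 of every group, 4 of 9 were called in the shoot, since BZIP1, BZIP11, BZIP44 and BZIP63 were lost.

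At single times the background varied along the course. For 5, 10, 15, 20, 30, 45, 60, 90 and 120 min in that order, the shares of all genes called in the shoot were 0.0574%, 0.890%, 1.77%, 3.11%, 6.72%, 25.0%, 26.3%, 37.3% and 36.9%. In the root these shares were 1.97%, 17.4%, 25.3%, 3.76%, 5.51%, 15.7%, 27.0%, 16.6% and 37.1% in the same order. The difference between N and KCl varied with time for 4 genes in the shoot (BZIP2, BZIP53, BZIP9 and BZIP10) and for 6 in the root (BZIP1, BZIP2, BZIP53, BZIP9, BZIP10 and BZIP63), beside 30.9% and 40.2% of all genes. For BZIP1 in the root this test holds the 60 min difference (log2 -1.26), when 1 KCl library stood at 133 CPM. No value of this test for BZIP1 without that library is given here.

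**Figure D1:**
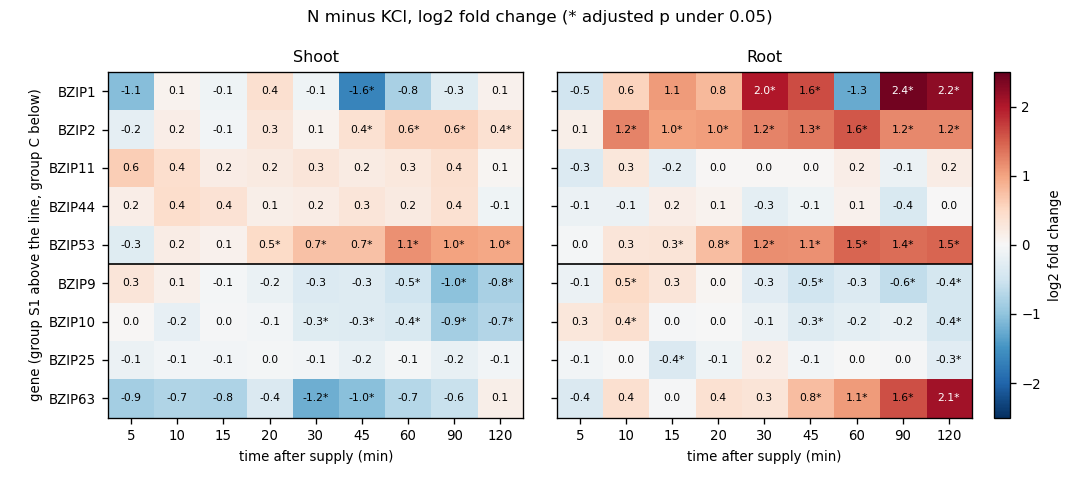
Log2 fold change of N over KCl (colour and number) for each of the 9 genes (rows, group S1 above the line) at each time in minutes (columns) in shoot and root, with an asterisk where the adjusted p was under 0.05. BZIP2 and BZIP53 are positive and called from 20 min on in the root, and BZIP63 and BZIP1 reach 2.1 and 2.23 at 120 min in the root while both lack a call in the shoot at that time.

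BZIP2, an S1 gene also known as a G-box factor, showed the earliest run of calls. In the root at 10 min it stood at 360.2, 299 and 344 CPM in N and at 94.5, 178 and 150.5 CPM in KCl, after 217, 237 and 219 CPM at time 0. The N libraries lay above all KCl libraries (log2 1.25, SE 0.143, adjusted p = 3.65e-08). From then on BZIP2 was called higher at every time, 8 of 9 times in all. These first calls fall on the root libraries that stand apart. The N groups of 10 and 15 min held root marker sums of 333.6 to 518 and 349 to 398 CPM, and the KCl groups 446 to 624 and 527 to 779 CPM. At 15 min, 2 of 6 root markers were lower and 2 of 6 shoot markers higher in N, and at 10 min 0 of 12 markers were called. The part of these markers in the calls of 10 and 15 min was not tested. At 20 min BZIP2 stood at 442, 509 and 441.5 CPM in N and 212, 222 and 239.9 CPM in KCl (log2 1.05, SE 0.142).

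The difference in BZIP2 was largest at 60 min, at 673, 660.1 and 800.1 CPM in N and 259.5, 254 and 211 CPM in KCl in the root. That is 711 ± 77.5 against 242 ± 26.4 CPM (SD, n = 3 each; log2 1.56, SE 0.144, adjusted p = 2.12e-11). At 120 min N still held 457, 465 and 478 CPM against 219, 184 and 209.6 CPM in KCl. In the shoot BZIP2 rose less and later, with calls at 4 times from 45 min. Its shoot libraries at 60 min were at 139, 193 and 177.5 CPM in N and 128, 105 and 111 CPM in KCl (log2 0.57, SE 0.135, adjusted p = 0.00116). The organ difference at 60 min was itself called (shoot minus root log2 -0.98, SE 0.196, adjusted p = 0.000374), beside 6.35% of all genes.

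BZIP53, an S1 factor known for joining group C factors on seed and proline dehydrogenase genes, was called higher in both organs. In the root the first call came at 15 min, among the libraries that stand apart, at 93.4, 82.8 and 70.1 CPM in N and 64.0, 66.6 and 65.9 CPM in KCl (log2 0.33, SE 0.122, adjusted p = 0.0435). At that time the N libraries, like those of KCl, also lay below the 96.8 to 102.5 CPM of time 0. What part the standing apart of these libraries has in the low values was not tested. The next call at 20 min was at 179.8, 205 and 176.5 CPM in N and 109.8, 105 and 114 CPM in KCl (log2 0.78, SE 0.121). N libraries lay above KCl libraries at both times and at every later one. At 60 min N held 264, 243.5 and 351 CPM and KCl 109, 106 and 98.4 CPM (log2 1.45, SE 0.123, adjusted p = 1.76e-12). At 120 min N held 252, 234 and 249.5 CPM and KCl 89.8, 90.1 and 89.1 CPM (log2 1.45, SE 0.123), a difference far wider than the spread of 245 ± 9.59 and 89.7 ± 0.497 CPM.

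In the shoot BZIP53 was called at 6 times, from 20 min on. At 20 min N held 160.5, 159 and 139 CPM and KCl 113, 111 and 108 CPM (log2 0.47, SE 0.120, adjusted p = 0.0162). At 60 min N held 196, 216 and 213 CPM and KCl 81.1, 96.1 and 107 CPM (log2 1.14, SE 0.121, adjusted p = 6.18e-10). The groups did not overlap at either time. Shoot libraries differed by supply in other measures too. From 5 to 30 min counts outside genes made up 1.83% to 2.99% of gene, outside and ambiguous counts together in N and 3.04% to 5.51% in KCl. At 45 min the N libraries held 1.97%, 3.84% and 4.60% and the KCl libraries 2.83% to 3.23%. The order was reversed at 60 min, with 3.61% to 4.38% in N and 2.90% to 3.41% in KCl. It was also reversed at 90 min, with 3.24% to 4.50% in N and 2.84% and 3.01% in KCl. At 120 min the groups overlapped. From 20 to 60 min the root marker sum was 102 to 138 CPM in N and 60.8 to 90.6 CPM in KCl. SCR, with 60 min means of 109 CPM under N and 63.9 CPM under KCl, was called higher at these 4 times, and 0 of the 4 other root markers tested were. Their part in the shoot calls was not tested. Of the 9 genes BZIP53 was the first to be called in the shoot, where BZIP10 and BZIP63 followed at 30 min.

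BZIP1, a factor known for rapid nitrogen responses and for induction under starvation, was low in both organs, with 4 higher calls in the root and 1 lower call in the shoot. In the root at 30 min it stood at 17.5, 20.2 and 18.4 CPM in N and 5.01, 4.75 and 4.31 CPM in KCl (log2 2.00, SE 0.582, adjusted p = 0.0279). At 90 min N held 20.9, 37.1 and 26.7 CPM and KCl 6.25, 5.14 and 4.44 CPM (log2 2.42, SE 0.584, adjusted p = 0.00210), and at 120 min N held 20.3, 38.1 and 31.5 CPM and KCl 8.30, 5.84 and 4.99 CPM (log2 2.23). N lay above KCl at each of these times and at 45 min (log2 1.62, adjusted p = 0.0482). At 60 min the root values were 9.81, 13.3 and 36.2 CPM in N and 6.82, 133 and 3.99 CPM in KCl. KCl replicate 2 thus stood apart, with log2 -1.26 (adjusted p = 0.0864) in the fit that holds it and 1.86 (adjusted p = 0.000332) without it. That library holds 13878732 gene counts, the fewest of the root libraries. Its summed CPM of the low-energy targets was 549.7, beside 515 and 552 in the other KCl libraries of that time.

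In the shoot BZIP1 was called lower at 45 min only. N held 2.17, 6.70 and 6.58 CPM and KCl 5.84, 27.8 and 14.3 CPM (log2 -1.65, SE 0.453, adjusted p = 0.00593). The groups overlap. The call at any time in the shoot (adjusted p = 0.0319) was lost without replicate 2 (0.250) or without replicate 3 (0.170). At 5 min KCl stood at 26.8, 35.0 and 22.5 CPM and N at 8.53, 17.7 and 13.9 CPM, which did not pass (adjusted p = 0.487).

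BZIP11, a sucrose-controlled regulator of asparagine synthetase and proline dehydrogenase genes, and BZIP44, known from germination, were called in the shoot over all times but at 0 single times. BZIP11 at 5 min held 216, 134 and 183 CPM in N and 120.3, 109 and 116 CPM in KCl (log2 0.62, SE 0.177, adjusted p = 0.238). BZIP44 at 10 min held 79.1, 70.5 and 68.2 CPM in N and 62.2, 46.8 and 51.7 CPM in KCl (log2 0.44, SE 0.149, adjusted p = 0.242). N lay above KCl for each gene at the time given, that of its smallest p. The adjusted p over all times was 0.00849 for BZIP11 and 0.00891 for BZIP44. It became 0.0561 and 0.0604 without replicate 1, and 0.308 and 0.190 without replicate 3. In the root neither passed over all times (adjusted p = 0.0603 and 0.294), and at 60 min BZIP11 stood at 87.4, 101 and 113 CPM in N and 97.2, 87.9 and 82.5 CPM in KCl.

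**Figure D2:**
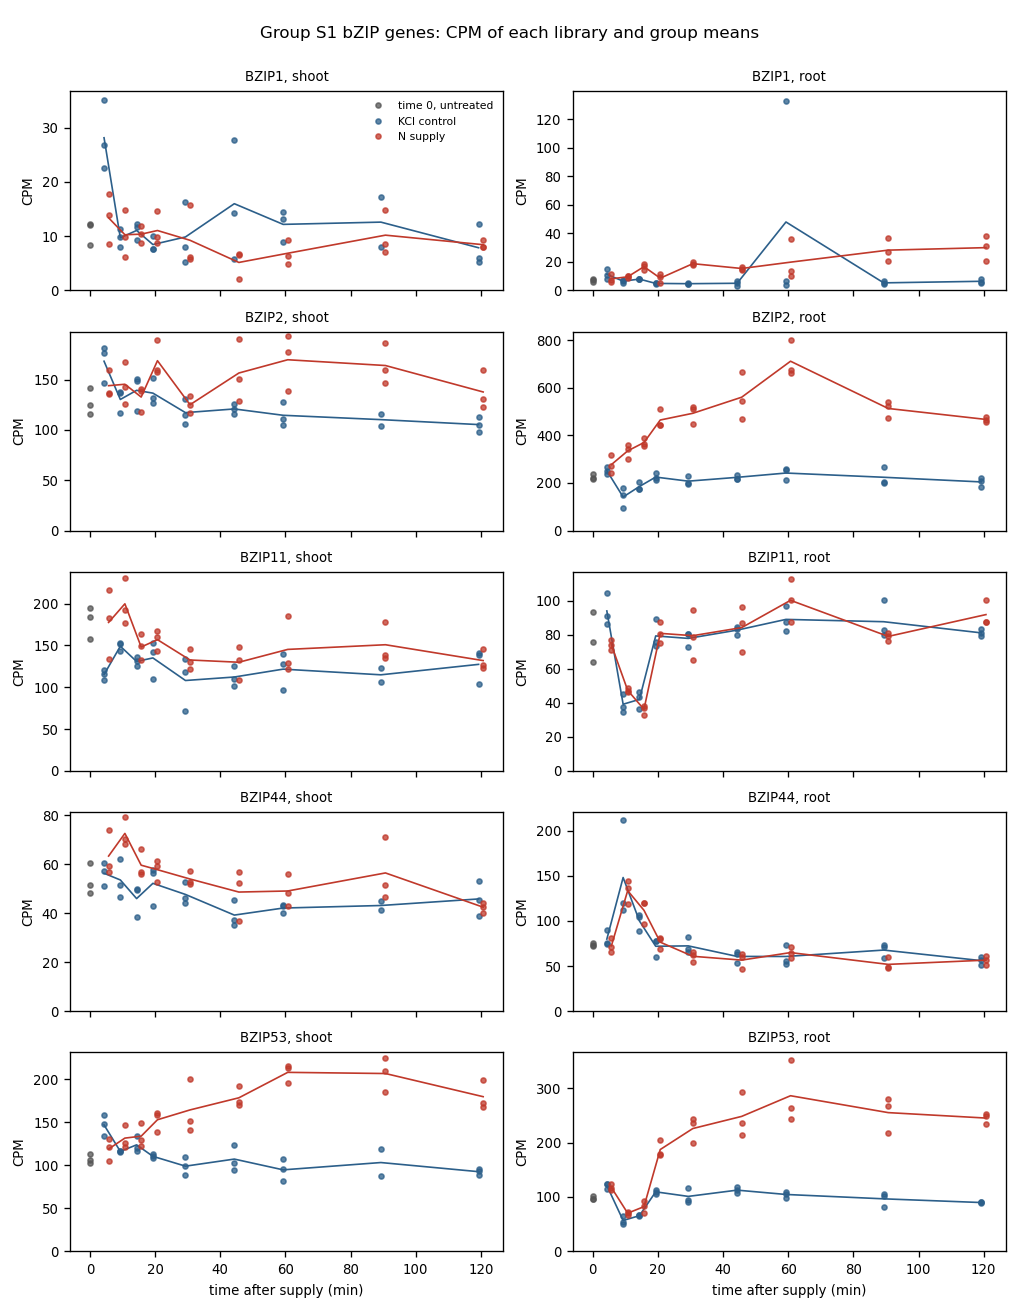
CPM of each library (points) against time in minutes for the 5 group S1 genes in shoot (left) and root (right), with lines through the group means of N and KCl and untreated libraries at time 0. In the root, N libraries of BZIP2 reach 800.1 CPM and those of BZIP53 351 CPM at 60 min, whereas BZIP11 falls to 32.97 to 46.5 CPM in both supplies at 15 min and 1 KCl library of BZIP1 stands at 133 CPM.

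BZIP63, a group C factor known as a direct substrate of SnRK1, was among the lowest of the 9 genes before treatment and rose late in the root. Its root libraries at 45 min held 10.2, 14.3 and 10.6 CPM in N and 7.30, 6.36 and 6.83 CPM in KCl (log2 0.78, SE 0.240, adjusted p = 0.0215). At 90 min N held 31.1, 34.4 and 25.5 CPM and KCl 9.52, 8.99 and 11.4 CPM (log2 1.60, SE 0.238). At 120 min N held 34.7, 45.2 and 41.5 CPM and KCl 11.4, 9.01 and 7.98 CPM (log2 2.1, SE 0.241, adjusted p = 4.04e-09). N lay above KCl from 20 min on, with calls from 45 min.

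In the shoot BZIP63 was called lower at 30 and 45 min. At 30 min N held 2.44, 1.98 and 3.04 CPM and KCl 4.39, 4.88 and 8.13 CPM (log2 -1.21, SE 0.382, adjusted p = 0.0443). At 45 min N held 2.17, 3.83 and 1.63 CPM and KCl 2.80, 6.59 and 6.16 CPM (log2 -1.04, SE 0.381, adjusted p = 0.0401), with overlap between the groups. At 120 min the values were 9.40, 9.43 and 7.27 CPM in N and 10.11, 6.22 and 7.24 CPM in KCl, which did not pass (log2 0.14, adjusted p = 0.785). The shoot call over all times (adjusted p = 0.00170) was lost without replicate 3 (0.147).

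BZIP10, a group C factor known as a partner of BZIP53 in seeds, fell in the shoot at 5 times from 30 min on. At 30 min N held 77.5, 88.4 and 74.6 CPM and KCl 99.9, 95.3 and 103 CPM (log2 -0.31, SE 0.0884, adjusted p = 0.0231). At 90 min N held 49.1, 58.1 and 66.9 CPM and the 2 KCl libraries 107 and 104 CPM (log2 -0.86, SE 0.0975, adjusted p = 1.77e-09). At 120 min N held 56.2, 57.3 and 61.2 CPM and KCl 98.7, 96.0 and 95.1 CPM (log2 -0.73, SE 0.0888). N lay below KCl at each of the 5 times. The libraries of time 0 held 93.5 to 99.2 CPM.

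In the root BZIP10 was called lower at 45 min (log2 -0.33, adjusted p = 0.0396) and at 120 min, when N held 46.0, 49.7 and 43.3 CPM and KCl 65.9, 63.4 and 60.0 CPM (log2 -0.45, SE 0.112, adjusted p = 0.00170). It was called higher at 10 min, with 87.1, 85.6 and 80.5 CPM in N and 51.8, 79.3 and 61.2 CPM in KCl (log2 0.40, adjusted p = 0.0117), among the root libraries that stand apart.

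BZIP9 fell late in both organs. In the shoot at 90 min N held 15.4, 13.12 and 13.05 CPM and the 2 KCl libraries 26.8 and 29.6 CPM (log2 -1.02, SE 0.195, adjusted p = 4.35e-05). At 120 min N held 15.6, 20.5 and 11.7 CPM and KCl 31.9, 24.1 and 27.6 CPM (log2 -0.81, SE 0.177). The groups did not overlap at either time, and 60 min was called too (log2 -0.51, adjusted p = 0.0281), with overlapping groups. In the root at 90 min N held 54.1, 68.6 and 54.2 CPM and KCl 84.96, 99.1 and 88.9 CPM (log2 -0.62, SE 0.149, adjusted p = 0.00193), with further calls at 45 and 120 min. At 10 min it was called higher in the root, at 177, 164 and 175 CPM in N and 84.6, 152 and 133 CPM in KCl (log2 0.48, adjusted p = 0.0204), again among the root libraries that stand apart.

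BZIP25, another seed partner of BZIP53, was the steadiest of the 9. Its shoot group means ranged from 127 to 149 CPM over all 19 groups, a ratio of 1.17, and its root means from 109 to 148 CPM, a ratio of 1.36. In the shoot no difference between N and KCl was detectable (adjusted p = 0.617 over all times). In the root it was called lower at 15 min, with 117, 104.5 and 126 CPM in N and 156, 149 and 139 CPM in KCl (log2 -0.36, SE 0.103, adjusted p = 0.00938), also among those libraries, and at 120 min (log2 -0.28, adjusted p = 0.0313), when the groups overlapped. Its root call over all times (adjusted p = 0.0284) was lost without any 1 of the 3 replicates (0.0934 to 0.494). By contrast group means of BZIP63 spanned 6.12-fold and those of BZIP53 5.05-fold in the root.

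**Figure D3:**
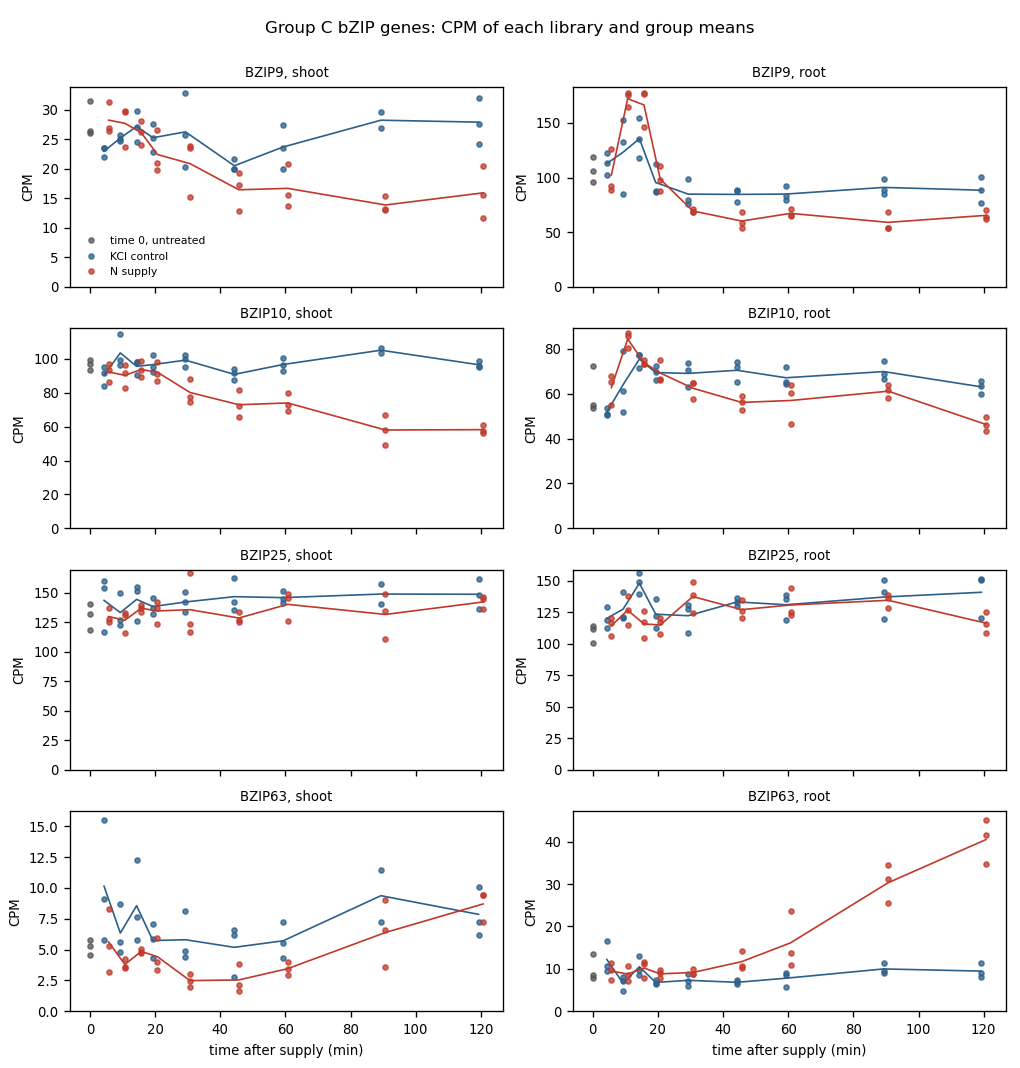
CPM of each library (points) against time in minutes for the 4 group C genes in shoot (left) and root (right), with lines through the group means of N and KCl and untreated libraries at time 0. BZIP9 and BZIP10 part downward in N in the shoot, to 13.9 and 58.0 CPM on average at 90 min, and BZIP63 climbs in N in the root to 40.5 CPM at 120 min, while BZIP25 keeps within 127 to 149 CPM on average in the shoot.

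The N effect differed between the organs at any time for 7 of the 9 genes in 1 fit of all libraries, beside 36.0% of all genes. For BZIP1 the difference was widest at 45 min, where N minus KCl was log2 -1.65 in the shoot and 1.62 in the root (difference -3.26, SE 0.765, adjusted p = 0.00482), beside 3.11% of all genes. For BZIP63 at 90 min the effects were -0.56 and 1.60 (difference -2.15, SE 0.443, adjusted p = 0.000273), beside 13.4% of all genes. For BZIP10 at 90 min they were -0.86 and -0.19 (difference -0.65, SE 0.150, adjusted p = 0.00123), so this gene fell more in the shoot. For BZIP53 at 120 min they were 0.96 and 1.45 (difference -0.49, SE 0.172, adjusted p = 0.0368), a larger rise in the root, beside 16.0% of all genes. BZIP44 was called at 90 min (0.39 and -0.39, adjusted p = 0.0152), and BZIP11 at 0 single times. BZIP9 and BZIP25 were not called (adjusted p = 0.185 and 0.634). Without the root libraries of 10 and 15 min 7 of 9 were again called, and without replicate 1 of every group 4 of 9, since BZIP11, BZIP44 and BZIP10 were lost.

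Within the KCl series itself, all 9 genes changed against time 0 in the root and 3 in the shoot, beside 89.3% and 8.75% of all genes. In the shoot these were BZIP1, BZIP2 and BZIP53, each with its smallest p at 5 min, where BZIP53 alone passed by itself (log2 0.45, adjusted p = 0.0436; 1.49% of all genes). Without replicate 3 of every group 0 of the 9 were called there. BZIP11 fell in shoot KCl at 30 min (log2 -0.73, adjusted p = 0.0128; 3.07% of all genes) and 45 min (-0.67, 0.0287; 2.21%), though its test over all times did not pass (adjusted p = 0.0516).

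In root KCl BZIP2, BZIP11, BZIP44, BZIP53, BZIP25 and BZIP63 were called against time 0 at 10 min, beside 72.9% of all genes. At 15 min BZIP11, BZIP44, BZIP53, BZIP9, BZIP10 and BZIP25 were called, beside 68.7% of all genes. BZIP1 was called at 60 min alone. BZIP11 went from 93.4, 64.2 and 75.9 CPM at time 0 to 37.8, 34.5 and 45.4 CPM at 10 min (log2 -0.99, SE 0.129, adjusted p = 4.41e-09), and N at that time was at 48.7, 46.8 and 46.7 CPM. BZIP53 went from 102.5, 97.1 and 96.8 CPM to 64.6, 50.8 and 54.6 CPM (log2 -0.80, SE 0.121), and BZIP2 fell too (-0.67, SE 0.141). BZIP44 rose from 75.8, 73.6 and 71.8 CPM to 213, 112 and 120.2 CPM (log2 1.01, SE 0.160, adjusted p = 3.65e-07). At 10 min 5 of 6 root markers and 5 of 6 shoot markers were also higher than at time 0, and at 15 min 4 and 3 of 6. Of these markers, 0 were at 0 in any root library. Their part in the result was not tested. Without those times 7 of 9 genes were called, with BZIP2 (adjusted p = 0.234) and BZIP11 (0.321) lost. BZIP25 was higher at 6 times in root KCl, by log2 0.37 (SE 0.103, adjusted p = 0.00266) at 120 min. BZIP44 was called lower there at 120 min (log2 -0.40, SE 0.159, adjusted p = 0.0357). The shares of all genes called against time 0 were 40.7% for 45 min, 42.4% for 60 min, 40.8% for 90 min and 48.1% for 120 min. BZIP1 was called higher at 60 min (log2 2.74), and without KCl replicate 2 and the other libraries of that number the value was -0.33.

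Summed over members and divided by length, S1 levels stood higher over C levels after N than after KCl, and in the root 2 genes made this difference. At 60 min BZIP2 averaged 578 CPM per kb under N and 196 under KCl, and BZIP53 226 and 82.6 CPM per kb. BZIP11 (73.3 and 65.1 CPM per kb) and BZIP44 (49.5 and 46.2 CPM per kb) were not called there. BZIP1 averaged 21.8 CPM per kb under N and 52.9 under KCl, where replicate 2 stood apart at 133 CPM. In the root the ratio of summed S1 to summed C levels in CPM per kb was 1.81 ± 0.0336 at time 0 (SD, n = 3). At 60 min it was 4.89, 4.64 and 5.68 in N and 2.01, 2.84 and 1.71 in KCl, and the groups did not overlap. The value of 2.84 belongs to KCl replicate 2, the library with the high BZIP1 count. In the shoot the ratio was 2.28 ± 0.130 at time 0, and at 90 min 3.93, 3.27 and 3.59 in N against 1.73 and 1.57 in KCl. These ratios rest on genes already described and carry no test of their own.

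**Figure D4:**
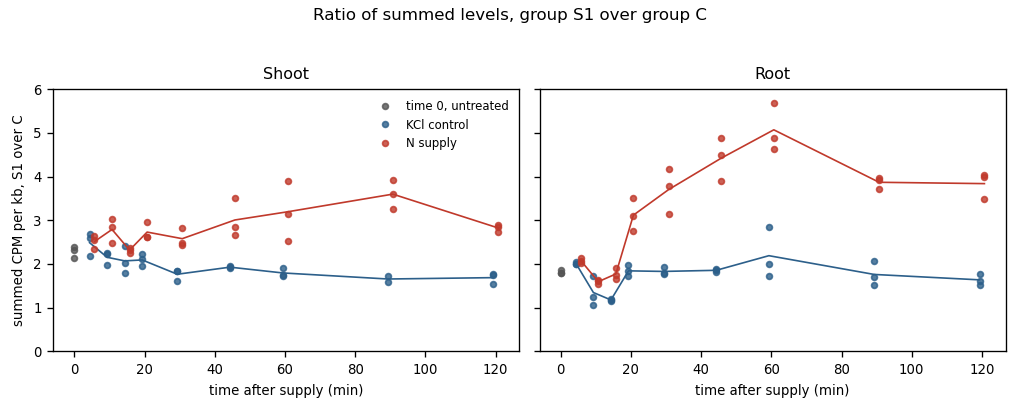
Ratio of summed CPM per kb of the 5 S1 genes over the 4 C genes in each library (points) against time in minutes, with lines through group means, in shoot and root. The N libraries of the root lie between 4.64 and 5.68 at 60 min and the KCl libraries between 1.71 and 2.84, and both supplies dip in the root at 10 and 15 min. The value of 2.84 belongs to KCl replicate 2, the library with BZIP1 at 133 CPM.

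Genes that the C and S1 network is known to act on were read beside the factors. Of 22 low-energy target genes, 16 were higher and 1 lower at any time in the root, where 29.3% of all genes were higher and 31.7% lower. In the shoot 4 were higher and 13 lower, beside 23.7% of all genes each way. In the root 14 were higher at 90 min and 16 at 120 min, and 0 lower, with median log2 values of 1.00 and 1.16, where 16.6% and 37.1% of all genes were called and the medians over all genes were -0.01 and 0.03. Shoot calls were 4 higher and 11 lower at 90 min and 4 higher and 8 lower at 120 min, with medians of -0.55 and -0.33, where 37.3% and 36.9% of all genes were called and the medians over all genes were -0.0046 and -0.03. The organ difference was called for 15 of 22 at 90 min and for 14 of 22 at 120 min, each lower in the shoot, beside 13.4% and 16.0% of all genes.

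The raffinose synthase family gene DIN10 of the dark-inducible group averaged 452 CPM with N and 39.2 CPM with KCl in the root at 120 min (log2 3.53, SE 0.319), and 33.2 and 21.2 CPM in the shoot (log2 0.65, not called). ERD5 averaged 165 CPM with N and 567 CPM with KCl in the shoot at 120 min (log2 -1.78, SE 0.195, adjusted p = 4.34e-10), and 423 and 220.1 CPM in the root (log2 0.94, SE 0.164, adjusted p = 1.66e-05). The difference between organs was log2 -2.72 (SE 0.258, adjusted p = 2.14e-13). BCAT-2 of branched-chain amino acid breakdown fell in the shoot by 1.49 (SE 0.175) and had 0.28 (SE 0.246) in the root, not called. RZPF34, a RING zinc finger gene, rose in the root by 4.03 (SE 0.382), with means of 86.6 CPM under N and 5.29 CPM under KCl.

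Other targets rose in both organs. The trehalose phosphate synthase genes TPS9 and TPS10 had log2 differences at 120 min of 1.39 (SE 0.207) and 1.58 (SE 0.171) in the shoot and of 1.95 (SE 0.203) and 1.36 (SE 0.189) in the root, each called higher. The expansin gene EXPA10 was higher by 1.85 (SE 0.165) and 1.22 (SE 0.344). ASN1, named for its known link to BZIP11 and BZIP1 and outside the rule for named genes, averaged 52.0 CPM with N and 1.28 CPM with KCl in the root at 120 min (log2 5.37, SE 0.580). In the shoot the means were 5.75 and 0.0834 CPM, also called higher.

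**Figure D5:**
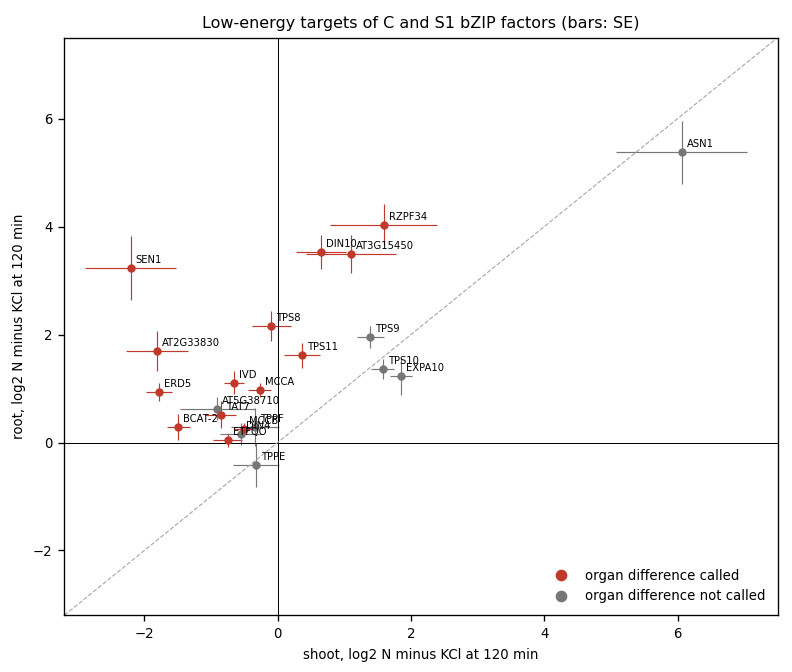
Log2 fold change of N over KCl at 120 min in the shoot (x axis) and root (y axis) of 22 low-energy target genes, with bars of 1 SE, red where the difference between organs was called. All but 1 gene (TPPE, root value -0.41, not called) lie above 0 in the root, while SEN1, AT2G33830, ERD5 and BCAT-2 lie furthest to the left in the shoot.

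A list of 12 genes held subunits of SnRK1 and of the opposing TOR kinase complex, with GRIK1 and GRIK2, kinases that activate SnRK1. In the shoot 1 of 12 was higher (GRIK1, log2 0.63 at 90 min, named for this count) and 6 lower at any time, and in the root 7 higher and 4 lower. That is 7 of 12 and 11 of 12 called, beside 47.4% and 61.0% of all genes. Direction was again read at the time of smallest p. At single root times no more than 2 of 12 were called higher and no more than 4 lower. KIN10, the main catalytic subunit of SnRK1, was lower in the shoot at 120 min, with means of 24.8 CPM under N and 43.9 CPM under KCl (log2 -0.82, SE 0.0926, adjusted p = 1.02e-09). KING1 and AKINBETA1, a gamma and a beta subunit gene, were lower there by log2 -0.64 (SE 0.101) and -0.71 (SE 0.180), and TOR by -0.80 (SE 0.142) at 90 min. In the root TOR and RAPTOR1 of the TOR complex were lower at 15 min by -1.44 (SE 0.226) and -0.69 (SE 0.151), and LST8-1 higher at 10 min by 0.80 (SE 0.142), among the libraries that stand apart. At 120 min TOR and RAPTOR1 were lower again, by -0.88 (SE 0.219) and -0.63 (SE 0.150). SNF4, a regulatory subunit gene, was lower in the root at 120 min by -0.44 (SE 0.0999).

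Of 4 auxin and clock genes linked to the network, 2 were lower in the shoot and 3 in the root at the time of smallest p, and 0 higher, where 47.4% and 61.0% of all genes were called. GH3.3, an auxin-conjugating enzyme gene, was lower in the shoot at 60 min (log2 -2.62, SE 0.623) and in the root at 30 min (-2.35, SE 0.590), where the groups overlapped. In the root it was then called higher at 90 min (2.12, SE 0.570) and 120 min (1.91, SE 0.582). The auxin response factor gene ARF19 had -0.55 (SE 0.212) in the shoot at 45 min and -0.55 (SE 0.186) in the root at 30 min, called over all times but not at those. SHY2, an auxin repressor gene, was lower in the root at 10 min (-1.77, SE 0.507), among the root libraries that stand apart. Its means there were 0.193 CPM under N and 0.680 CPM under KCl. Of 5 seed maturation genes bound by BZIP53 pairs in seeds, 2 passed the filter in the shoot and 1 in the root, and 0 were called by edgeR over all times. Their unadjusted p-values were 0.0701 and 0.0602 in the shoot and 0.772 in the root. CRA1 alone passed at a single time, 90 min in the shoot, with means of 1.30 CPM under N and 0.107 CPM under KCl (adjusted p = 0.0280).

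The genes whose course over the 19 group means of an organ was most like that of a member were looked up for the 3 members with the smallest p in each organ. For BZIP63 in the root they were DIN10 (Pearson r = 0.95), AT3G15630 (0.93) and the trehalose phosphate synthase gene TPS11 (0.93). For BZIP53 in the root they were CDF1 (0.98), a Dof factor gene, the kinase gene CIPK3 (0.98) and AT2G43760 (0.97), and for BZIP2 in the root RFNR1 (0.97), a ferredoxin reductase gene of roots, AT1G67920 (0.97) and AT1G72220 (0.97). For BZIP53 in the shoot they were AT2G23100 (0.97), AT4G25620 (0.97) and RVE2 (0.95), a clock-related MYB gene. BZIP10 in the shoot was closest to AT5G66250, AT5G18130 and ATI2 (0.98 each), and BZIP9 to AT3G20300, SAL2 and CSK (0.95 each). These are descriptions over 19 means that share libraries and treatment, out of 15715 shoot and 15529 root genes. Among the members themselves BZIP9 and BZIP10 had r = 0.91 in the shoot and BZIP53 and BZIP10 had -0.84. In the root BZIP2 and BZIP53 had 0.87, BZIP44 of S1 and BZIP9 of C likewise 0.87, and BZIP11 and BZIP44, both of S1, -0.85. The 19 root means include the groups of 10 and 15 min that stand apart. There BZIP44 averaged 100 to 148 CPM, BZIP9 123 to 172 CPM and BZIP11 36.2 to 47.4 CPM. In the other root groups these genes averaged 51.8 to 79.9, 59.0 to 113 and 74.1 to 100 CPM in the same order. The part of the 10 and 15 min groups in the root values of r was not tested.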

How the data were processed

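Counts of reads per gene were used as deposited, 1 file per library. TAIR10, TopHat2 (version 2), HTSeq and limma are named, with no role or order, in the submitters' processing notes. The 5 closing lines of each file name no gene and were left out. Per the labels' protocols, polyA RNA was made into libraries with dUTP. The strand setting is not given in the sources used here. Treatment was read from the titles. For root replicate 1 at time 0 the source name says shoot, and the title and organ tag, which say root, were followed.

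The model, run in edgeR 4.0.16 under R 4.3.3, gave every group of an organ its own mean. The filter was filterByExpr (minimum count 10, minimum total 15), the scaling TMM and the test edgeR's quasi-likelihood F. P-values were adjusted by Benjamini and Hochberg's method across every gene in the fit, with calls made under 0.05, and SE is the standard error of a log2 difference. Both organs were fitted together for differences between them. Scripts were tested on simulated data. Alternatives were RLE scaling, no filter, DESeq2 1.42.0, a replicate block, the nearly empty library kept, each replicate left out, and only the libraries compared. Leaving out root KCl replicate 2 at 60 min, and the root libraries of 10 and 15 min, were chosen after seeing the data.

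Members and lists were chosen with earlier results of these data known. Named are all 9 members and, of each other list, up to 4 called genes per organ with the smallest p. Likeness was read on log2 CPM (prior count 2) among genes with a mean of at least 5 CPM. Sequences and gene models come from RefSeq TAIR10.1, whose name differs from the authors' TAIR10. A window ends at the base before the annotated start.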

Additional observations from a re-analysis of the deposited data

Results flagged for a closer look

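For 7 of the 9 genes the test of the difference itself found that the N effect was not the same in shoot and root over the 9 times (edgeR quasi-likelihood F-test in 1 fit of both organs, Benjamini-Hochberg over all genes). The adjusted p was 4.36e-15 for BZIP2, 1.57e-09 for BZIP63, 7.28e-05 for BZIP1, 0.000227 for BZIP10, 0.00283 for BZIP53, 0.00512 for BZIP11 and 0.00923 for BZIP44. At the time of smallest p the effect was lower in the shoot for BZIP1, BZIP2, BZIP10, BZIP53 and BZIP63 and higher for BZIP11 (log2 0.97 at 5 min) and BZIP44 (0.79 at 90 min).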

How the results depend on the processing

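RLE scaling, no filter, DESeq2, the replicate block and the nearly empty library kept left each count of called members within 1.5 times its main value and reversed 0 results. Among single values, no filter lost 10 calls and gained 0, DESeq2 lost 0 and gained 8, and RLE scaling lost 1 and gained 1. Fits of only the libraries compared gave 13 gene and time pairs in the shoot in place of 21. Leaving out 1 replicate number of every group gave 4 to 7 members called in the shoot (8 with all libraries), 11 to 15 pairs in the shoot (21), 21 to 27 pairs in the root (32), 0 to 1 members in the KCl series of the shoot (3) and 4 to 7 members for the organ difference (7). The same gave 6 in the root (7), 7 in its KCl series (9) and 6 at time 0 (6). Without root KCl replicate 2 at 60 min the root held 34 pairs.

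BZIP1 at 60 min in the root turned with replicate 2. N minus KCl was log2 -2.60 to 2.09 across the left-out numbers (-1.26 with all), KCl minus time 0 was -0.33 to 3.36 (2.74) and the organ difference was -2.88 to 1.45 (0.44). Without that 1 KCl library N minus KCl was 1.86. The cause was not tested.

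Replicate numbers showed little pairing of the libraries: 3 of 26 pairs in the shoot and 5 of 27 in the root correlated above 0.1. The medians were -0.03 and 0.04, and the largest values 0.47 and 0.23. These values cannot say whether libraries of the same number shared a culture or batch. With the replicate block 20 pairs were called in the shoot and 31 in the root, and 8, 7 and 7 members in shoot, root and between organs.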
